A study of Mus musculus with 5 samples.

Results

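Cycling cells of the pre-B stage were taken from droplet single-cell RNA profiles of mouse bone marrow by counts of their own transcripts. A barcode was a member when it held at least 1 UMI (a counted transcript molecule) each of Ebf1 and Cd79a, at least 2 of Mki67 and Top2a together, fewer than 5 of Dntt, Vpreb1 and Igll1 together, and fewer than 2 of Cdkn2a and Tmem119 together. Barcodes were first required to hold at least 500 UMIs with at most 10% from mitochondrial genes, which 29679 did in all. The rule found 339 members, 1.14% of those barcodes. The 5 libraries were bone marrow of C57BL/6J mice, 1 mouse per day, at day 0, 3, 6, 9 or 12 after 1000 BCR-ABL1 pre-B leukaemia cells had been given into the tail vein without irradiation. The day 0 mouse was taken directly after the transplant. Marrow was flushed, the bones were digested with enzymes at 37 °C, red cells were lysed and the cells were frozen before capture. Transplanted and host cells cannot be told apart by the counts used here. By flow cytometry of the marrow, the paper reports hardly any leukaemia cells before the last of these days, and a higher share on it. Whether any member was a leukaemia cell was not tested. A day cannot be told apart from its mouse or its library, so no test was made between days.

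B cells form in the marrow in ordered steps. A pro-B cell joins the segments of its immunoglobulin heavy chain gene. It then pairs the new heavy chain with a surrogate light chain, made of the Vpreb and Igll1 proteins, as the pre-B cell receptor. Signals of that receptor together with interleukin 7 drive a burst of division in which the cells are large. The surrogate light chain genes are then shut off, division stops, and the small resting pre-B cell expresses the recombinases Rag1 and Rag2 and joins its kappa or lambda light chain gene. Ebf1 is a transcription factor of B cell identity and Cd79a a signalling chain of the B cell receptor, while Top2a, a DNA topoisomerase, and Mki67, a protein of the mitotic chromosome surface, mark dividing cells.

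Ebf1 (chr11:44617317-45008091, plus strand, mm10), Cd79a (chr7:24897381-24902197, plus), Mki67 (chr7:135689784-135716361, minus) and Top2a (chr11:98992943-99024189, minus) are genes the members were chosen by, so their counts describe the rule and are not findings. Per member cell the median was 7 UMIs of Ebf1, 6 of Cd79a, 2 of Mki67 and 4 of Top2a. Top2a was detected in 323 members (95.3%) and Mki67 in 302 (89.1%). Dntt, the template-free DNA polymerase of pro-B cells, was detected in 9 (2.65%), Vpreb1 in 49 (14.5%) and Igll1 in 52 (15.3%). The limit on Dntt, Vpreb1 and Igll1 fell in a thinly filled range. Of the members, 247 held none of these UMIs, 9 held 3 and 5 held 4, and of the barcodes just outside 6 held 5 and 6 held 6, while 128 held 20 or more. The limit on cycling genes fell in a filled range, with 178 barcodes kept out by a single UMI of Mki67 and Top2a and 40 members let in by 2. No barcode was a member in more than 1 library. Each pair of libraries shared 40 to 61 passing barcodes, of which 0 to 2 were a member in 1 of the pair. The last of the labelled markers, the myosin light chain gene Myl4 (chr11:104550663-104595753, plus), was not part of the rule. Myl4 was detected in 220 members (64.9%), against 1.28% of 17146 neutrophil-rich barcodes. Those have their own depth, and with every cell thinned to 1000 UMIs Myl4 was detected in 34.2% of members, 23.2% of cycling early cells, 28.3% of non-cycling cells (both defined below) and 0.268% of neutrophil-rich barcodes.

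The label did not hold for every member. Lists of genes of other cell types were summed per cell, with limits chosen after the values were seen, and 102 of the 339 members (30.1%) were past at least 1 limit. Of these, 60 held at least 5% of their UMIs in 8 neutrophil genes (S100a8, S100a9, Ngp, Ltf, Camp, Retnlg, Lcn2 and Mmp8), with a median of 40.1%. Another 29 held at least 1% in monocyte genes, 7 at least 0.3% in genes of granulocyte-monocyte progenitors, 3 in plasma cell genes, 2 in T and NK cell genes and 1 in plasmacytoid dendritic cell genes. The neutrophil-rich members had medians of 2 UMIs of Ebf1, 2 of Cd79a and 13782 in all. The other 237 members, past no limit and called B-lineage members here, had medians of 10, 7 and 5226. The B lineage list, which shares no gene with the rule, took a median of 0.0971% of the UMIs in neutrophil-rich members, 0.0785% in monocyte-rich members and 0.731% in B-lineage members. The name B-lineage did not hold for each of these cells, and a day 9 cell had 0.0337% in the list. At day 12 they included cells at 0.146%, 0.130% and 0.0503%, with 2059, 8438 and 11938 UMIs, which weigh on the summed levels of that day. S100a8 was detected in all 339 members. Barcodes of at most 100 UMIs, which carry mainly free RNA, held 19.7% to 28.7% of their UMIs in the neutrophil list. By day the cells past a limit numbered 13, 14, 36, 35 and 4. Their part in the results was not tested, and the results below are given with and without them. Scrublet, a doublet caller, marked 4 members, but its automatic threshold marked under 0.5% of barcodes in 4 of the libraries and is not informative there.

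**Figure D1:**
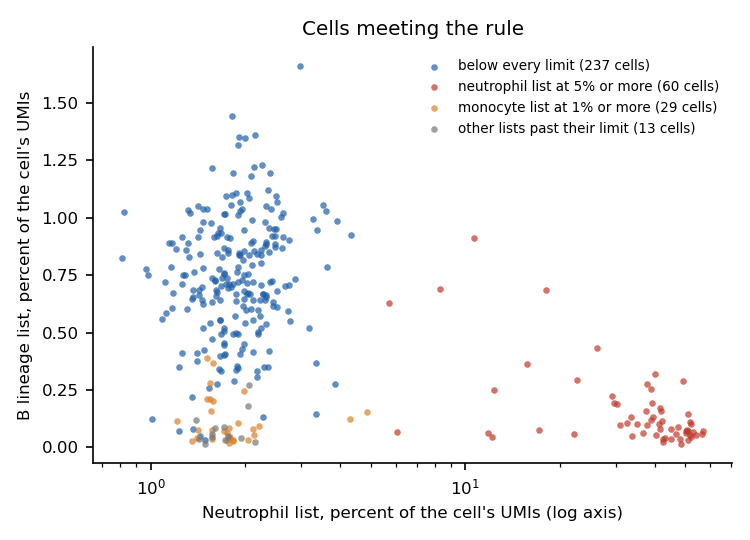
Each point is 1 member cell (339 in all), with the share of its UMIs in the neutrophil gene list on a log x axis and the share in the B lineage list on the y axis, both in percent. The 237 members below every limit (blue) lie below 5% on the neutrophil axis and mostly above 0.25% on the B lineage axis. Of the 60 neutrophil-rich members (red) 50 lie at 20% or more, and 10 lie between 5% and 20%, some with B lineage shares like those of the blue cells.

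Members were 0.703% of passing barcodes at day 0, 1.23% at day 3, 1.84% at day 6, 1.60% at day 9 and 0.234% at day 12. The numbers of cells were 44, 60, 111, 111 and 13. The exact binomial 95% intervals, which cover counting error only, were 0.511% to 0.943% at day 0, 0.941% to 1.58% at day 3, 1.51% to 2.21% at day 6, 1.32% to 1.92% at day 9 and 0.124% to 0.399% at day 12. Days 6 and 9 were the highest, the intervals of days 3, 6 and 9 overlapped, and day 12 was the lowest. Without cells rich in other types the shares were 0.495%, 0.945%, 1.24%, 1.09% and 0.162%, with intervals of 0.337% to 0.702%, 0.692% to 1.26%, 0.978% to 1.55%, 0.863% to 1.37% and 0.0740% to 0.307%. The intervals of days 3, 6 and 9 overlapped here as well. Among barcodes with both Ebf1 and Cd79a, members made up 4.20% of 1047 at day 0, 11.5% of 523 at day 3, 10.8% of 1026 at day 6, 12.6% of 879 at day 9 and 9.03% of 144 at day 12. The B-lineage members alone were 2.96%, 8.80%, 7.31%, 8.65% and 6.25% of the same barcodes. Day 0 was the lowest on this scale with either set. The fall at day 12 on the other scale went with the small number of Ebf1 and Cd79a barcodes there. Median depth of the members was close across days, from 6147 UMIs at day 9 to 7196 at day 6.

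**Figure D2:**
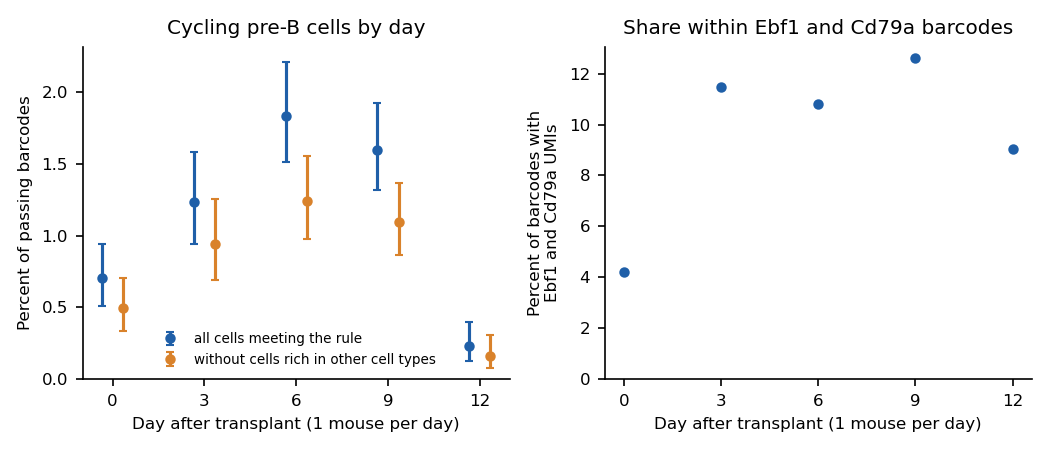
Left, members as a percent of passing barcodes at day 0, 3, 6, 9 and 12 (1 mouse each), for all cells meeting the rule (blue) and for those below the limits on other cell types (orange), with exact binomial 95% intervals. Right, members as a percent of the barcodes with Ebf1 and Cd79a UMIs, where day 0 is the lowest at 4.20% and day 9 the highest at 12.6%.

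Members were next set against cycling early cells, barcodes that met the same rule except that Dntt, Vpreb1 and Igll1 summed to 5 or more (203 cells, numbering 30, 37, 46, 76 and 14 by day). This asks what else differs between dividing cells with more and with fewer of these transcripts. The members were a mixture, as described below for Ms4a1. Early cells were deeper, with a median of 12165 UMIs against 6642. UMIs were summed per library and class and compared within each of the 5 libraries by edgeR's quasi-likelihood test with Benjamini-Hochberg adjustment, over 5222 genes. Of these, 998 (19.1%) were higher and 1086 (20.8%) lower in members. The rule separated the classes on transcripts that change along the B cell path, so a difference in another gene of that path is a description of what came with those transcripts.

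Genes of surface immunoglobulin and antigen presentation were among the largest increases in members. Ms4a1 (CD20, a surface protein of B cells; chr19:11249675-11266241, minus) was at 1.16, 1.61, 1.02, 1.51 and 1.04 UMIs per 10000 in members at day 0, 3, 6, 9 and 12, and at 0.126, 0.0159, 0.121, 0.0335 and 0.0888 in early cells. The groups did not overlap, and the fitted log2 difference was 4.18 ± 0.296 (SE, 5 libraries; adjusted p = 1.29e-10), or 4.49 without cells rich in other types. Cd74, the invariant chain that escorts MHC class II, was at 9.20, 17.6, 8.32, 14.1 and 15.1 in members against 0.822, 0.413, 0.903, 0.615 and 0.533 in early cells (log2 difference 4.22 ± 0.340, adjusted p = 0.000144; 4.24 without those cells). H2-Aa, a class II chain, differed by 3.29 (adjusted p = 2.34e-08) and was at 2.23 to 5.67 in members and 0.133 to 0.569 in early cells. The lambda constant genes Iglc1, Iglc2 and Iglc3 differed by 4.57 ± 0.507, 4.53 ± 0.263 and 4.86 ± 0.224 (adjusted p = 0.000908, 4.35e-09 and 2.59e-15). Their sequences are so alike that reads can be assigned to the wrong copy, so the split between them is uncertain. In B-lineage members, 253 UMIs of Ms4a1 and 2000 of the lambda constant genes were in 38 cells, described below. The other 199 cells held 12 and 156. Igkc, the kappa constant gene, was at 16.7, 20.8, 18.1, 93.2 and 12.9 in members and at 1.38 to 5.57 in early cells (log2 difference 2.98 ± 0.511, adjusted p = 0.011). At day 9, 3797 of its 8629 UMIs came from 1 cell, and in B-lineage members the level there was 27.3, within the 19.7 to 34.4 of the other days. Of the 13 genes of the mature B list 10 were tested and all 10 were higher (median log2 difference 3.21), and 9 of 10 were higher without cells rich in other types (3.14).

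**Figure D3:**
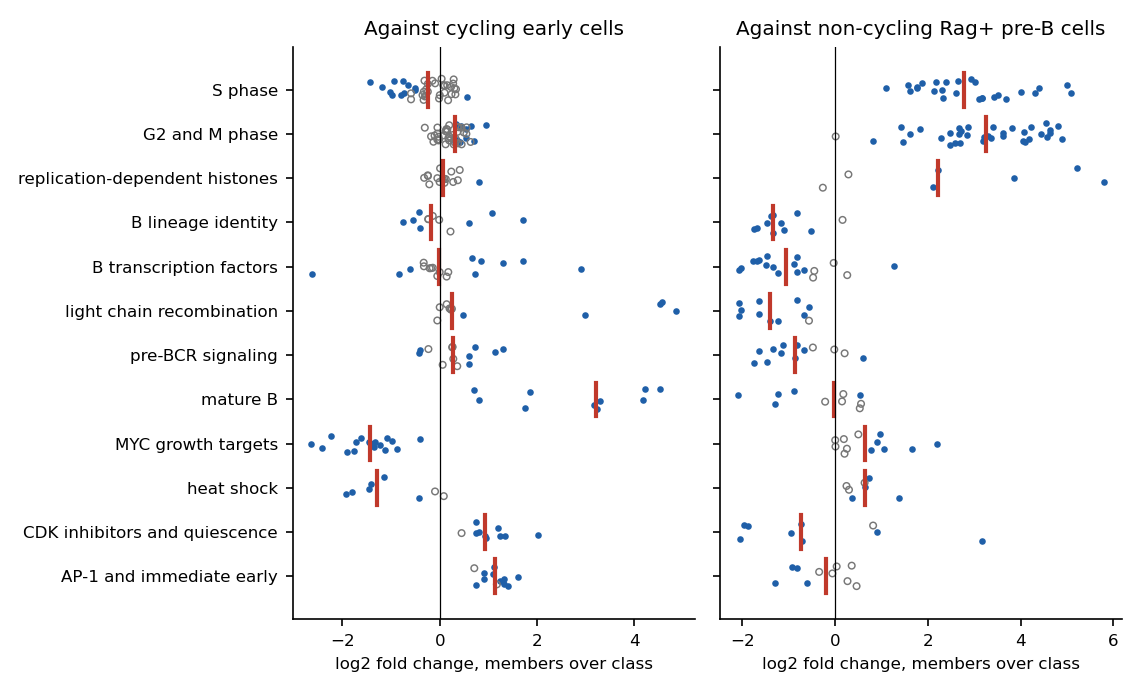
Fitted log2 fold change of members over cycling early cells (left, 5 libraries) and over non-cycling Rag+ pre-B cells (right, 4 libraries) for each tested gene of 12 lists, 1 point per gene. Filled blue points passed adjusted p below 0.05 in edgeR, open points did not, and red bars are list medians, which are 3.21 for mature B genes and -1.44 for MYC growth targets on the left and 3.25 for G2 and M phase genes on the right.

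Genes lower in members than in early cells were of the surrogate light chain, of cell growth and of the early B programme. Vpreb2 (chr16:17980428-17981273, plus), the close copy of the rule gene Vpreb1, was at 0, 0.146, 0, 0 and 0.104 UMIs per 10000 in members and at 0.885, 1.76, 0.633, 0.883 and 2.84 in early cells (log2 difference -4.99 ± 0.375, adjusted p = 1.41e-09). Reads can be shared between these copies, so this value is not separate from the rule. Lef1, a transcription factor of early lymphocytes, was at 0.226, 0.0914, 0.266, 0.184 and 0 in members and at 1.90, 1.13, 1.04, 1.06 and 1.46 in early cells (-2.62 ± 0.227, adjusted p = 8.22e-10; -1.93 without cells rich in other types). Bfsp2, Myl10 and Car2 fell by 3.35, 3.77 and 2.06 on the log2 scale (adjusted p = 2.5e-14, 0.00367 and 3.02e-09). Myl10 was at 0 in members at days 0 and 6 and at 0.622 at day 12.

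The genes of ribosome making and growth fell together. All 17 tested genes of the MYC growth list, chosen as known targets of the growth factor MYC, were lower in members, with a median log2 difference of -1.44, and all 17 were lower without cells rich in other types (-1.40). Npm1, the nucleolar chaperone nucleophosmin, was at 5.87, 7.26, 6.41, 7.25 and 7.88 UMIs per 10000 in members and at 36.1, 21.8, 18.7, 18.3 and 29.5 in early cells (-1.76 ± 0.145, adjusted p = 6.39e-09). Srm, spermidine synthase, was at 0.113, 0.183, 0.284, 0.432 and 0.415 against 2.06, 1.48, 1.32, 1.07 and 1.64 (-2.24 ± 0.263, adjusted p = 6.24e-06). The nucleolar GTPase Gnl3 fell by 2.41 and Cad, which starts pyrimidine synthesis, by 2.65. Myc itself was at 0.0184 to 0.622 in members and 0.297 to 0.590 in early cells (-2.42 ± 0.393, adjusted p = 2.27e-05), and it was lower in 4 of the 5 libraries, day 12 being the exception. Mif, which encodes a secreted cytokine, fell by 2.27 (adjusted p = 7.03e-05). Of 8 heat shock genes 6 were lower (median -1.28; 7 of 8 and -1.10 without cells rich in other types), among them Hsp90ab1 (-1.41) and the mitochondrial chaperonin Hspe1 (-1.94). Glycolysis genes depended on the cells kept, with 2 of 12 higher and 3 lower in all members, and 0 of 9 higher and 8 lower without cells rich in other types.

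Brakes on the cell cycle were higher in members although both classes divide by the same rule. Of 10 tested genes of the CDK inhibitor and quiescence list 9 were higher (median 0.94), and 8 of 9 were higher without cells rich in other types (1.14). They included Klf2, a transcription factor of resting lymphocytes (2.02, adjusted p = 4.24e-08), the antiproliferative genes Btg1 (1.20) and Btg2 (1.33), and Cdkn2d (1.24), an inhibitor of CDK4 and CDK6. The cyclins that open the cell cycle were lower. Ccnd2 was at 0.367, 0.530, 0.431, 0.648 and 1.14 in members and at 2.23, 1.16, 1.01, 1.17 and 3.15 in early cells (-1.32; -0.96 without cells rich in other types), and Ccnd3 fell by 0.78 (adjusted p = 1.14e-05; -0.56 without those cells). Of 41 S phase genes 1 was higher and 11 lower (median -0.25), and without cells rich in other types 9 were higher and 9 lower. Of 47 G2 and M phase genes 12 were higher and 0 lower (0.31), and 25 were higher without those cells (0.51).

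Other B lineage genes changed their count, and some their direction, with the cells rich in other types. In all members 3 of 12 B lineage identity genes were higher and 4 lower than in early cells (median -0.19). Without those cells 7 were higher and 0 lower (0.54). Of 13 pre-BCR signalling genes 5 were higher and 2 lower, and without those cells 6 were higher and 0 lower. The kinase Syk, the proximal kinase of the receptor, was higher in both settings (1.30 and 1.65), as was Spib, an ETS family factor of B cells (1.71 and 2.29). Light chain recombination genes were higher in 5 of 11 (median 0.25), 4 of the 5 being Igkc and the lambda constant genes, and in 9 of 11 without those cells (0.97). Of 11 genes of the interleukin 7 receptor path 3 were higher and 4 lower, and without those cells 4 of 10 were higher and 4 lower. Of 18 B cell transcription factors 6 were higher and 3 lower, and 9 and 2 without those cells. The inhibitor Socs2 fell by 2.08 while the kinase gene Pim1 rose by 1.54. Il7r itself had a log2 difference of -0.08 (adjusted p = 0.706) and 0.58 without those cells, Rag1 0.23 (adjusted p = 0.565) and 1.22, and Myl4 -0.03 (adjusted p = 0.884) and 0.68. AP-1 and immediate early genes were higher in 10 of 12 (1.15) and in 7 of 10 without those cells (0.66).

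Among the named increases 3 went with the cells of other types. The granule proteases Prtn3, Ctsg and Elane, genes of granulocyte progenitors, were higher by 4.13, 4.05 and 3.89 in all members. Ctsg was at 0.310, 1.79, 4.89, 2.77 and 2.90 UMIs per 10000 in members by day, and at day 6, 342 of its 533 UMIs came from 1 cell. Without cells rich in other types, Prtn3 differed by 0.41, Elane by 0.14, and Ctsg was too low to test. The neutrophil list behaved likewise, with 6 of 8 genes higher (2.17) in all members and 0 of 8 (0.12) without those cells.

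The B-lineage members were not uniform in Ms4a1. Of the 237 cells, 187 held 0 UMIs of it, 12 held 1, 17 held 2 to 4, 13 held 5 to 9, 7 held 10 to 19 and 1 held 20 or more. The 38 cells with at least 2 made up 16.0% (exact binomial 95% interval 11.6% to 21.3%), against 2 of 188 early cells (1.06%, 0.129% to 3.79%) and 0.303% of neutrophil-rich barcodes. Median depths were 6586 UMIs in the 38 cells, 4717 in the other 199 and 11988 in the early cells. By day the 38 cells were 3 of 31 (9.68%), 8 of 46 (17.4%), 11 of 75 (14.7%), 14 of 76 (18.4%) and 2 of 9 (22.2%), so they were present in every library. This division was chosen after the values were seen, and what follows is a description without a test.

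Lambda and class II transcripts took a larger share of the UMIs in the 38 cells. Iglc2 was at 26.6 UMIs per 10000 in them, 0.640 in the 199 and 0.191 in early cells. Ly6d, a surface protein of B and other lymphoid cells, was at 23.7, 3.22 and 0.713, and Cd74 at 45.3, 7.99 and 0.695. Ighd, the heavy chain of IgD, was at 1.65, 0.320 and 0.130, and Cd83, a gene of activated B cells, at 1.71, 0.0432 and 0.0144. Igkc differed less, at 57.7, 21.8 and 3.76, and Ighm, the heavy chain of IgM, at 27.7, 21.3 and 11.0.

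Pre-B genes lay the other way. Il7r, the interleukin 7 receptor, was detected in 4 of the 38 cells (10.5%), in 126 of the 199 (63.3%) and in 70.2% of early cells, at 0.165, 2.23 and 1.08 UMIs per 10000. Sox4 was at 0.428, 3.31 and 1.36, Rag1 at 0.0659, 0.501 and 0.169, and Bach2, a repressor of plasma cell fate, at 0.757, 3.34 and 0.954. Myl4 was at 1.75, 7.99 and 3.63 and Vpreb3, a chaperone-like protein of the pre-B cell, at 10.6, 29.2 and 15.8. In Il7r, Sox4, Rag1, Bach2, Myl4 and Vpreb3 the 199 cells were above both of the others. By these genes the pre-B label was not borne out in the 38 cells. Growth genes were low in both groups of members. Npm1 was at 10.8 in the 38 cells, 8.03 in the 199 and 23.8 in early cells, and Gnl3 at 0.395, 0.173 and 1.16. Thus the rise of H2-Aa (3.84 in the 199 against 0.335 in early cells), Cd74 and Igkc over early cells was present outside the 38 cells too. H2-Aa ranged from 1.99 to 10.4 in the 199 over the libraries of days 0 to 9, against 0.274 to 0.569 in early cells, and at day 3, 164 of its 288 UMIs in B-lineage members came from 1 cell. No limit was set for conventional dendritic cells or macrophages, and the part of such cells in the class II values was not tested. By contrast, Ms4a1 was at 0.104 in the 199 and 0.0720 in early cells, with the first of these held down by the choice of cells.

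**Figure D4:**
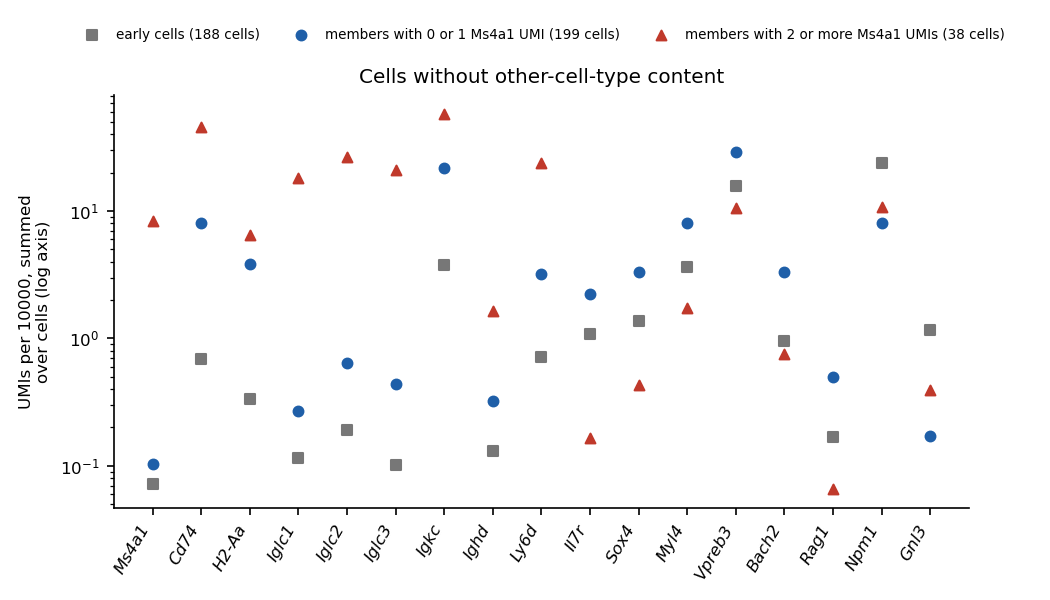
UMIs per 10000, summed over cells and drawn on a log axis, of 17 genes in the 38 B-lineage members with 2 or more Ms4a1 UMIs (red triangles), the 199 with 0 or 1 (blue circles) and 188 early cells (grey squares), all below the limits on other cell types. Red lies highest from Ms4a1 to Ly6d, blue lies highest from Il7r to Rag1, and grey lies highest for Npm1 and Gnl3.

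Members were then set against non-cycling Rag+ pre-B cells (263 cells, numbering 59, 43, 81, 73 and 7 by day). These barcodes had Ebf1 and Cd79a, at least 1 UMI of Rag1 or Rag2, and none of Mki67 or Top2a. The limits on Dntt, Vpreb1 and Igll1 and on Cdkn2a and Tmem119 were those of the members. The comparison describes what differs between these classes. Members include cells rich in other types and the cells with Ms4a1 above, so the values do not trace pre-B cells leaving the cycle. Non-cycling cells were shallower, with a median of 1759 UMIs. Over the 4 libraries of days 0 to 9, 658 of 3220 genes (20.4%) were higher and 661 (20.5%) lower in members. Cell cycle genes follow from the rule's use of Mki67 and Top2a, and all 26 tested S phase genes and 35 of 36 G2 and M phase genes were higher, with medians of 2.79 and 3.25. Ctcf, an architectural protein of chromatin that the list carries, was the exception at 0.02. Without cells rich in other types it was 23 of 23 and 29 of 30.

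The cycle genes were searched for the promoter letters known for their phases. Kif11, Cenpf and Dtl, list genes with large differences, are shown as examples of the letters found, with the 250 bases before the RefSeq start of each in GRCm38.p6, 5′ to 3′ on the gene's strand. Capitals mark CCAAT, the letters bound by the factor NF-Y, TTTGAA or TTTAAA, the letters of the CHR element of G2 and M genes, and TTTGGCGC, an E2F-type site of S phase genes, on either strand.
Kif11: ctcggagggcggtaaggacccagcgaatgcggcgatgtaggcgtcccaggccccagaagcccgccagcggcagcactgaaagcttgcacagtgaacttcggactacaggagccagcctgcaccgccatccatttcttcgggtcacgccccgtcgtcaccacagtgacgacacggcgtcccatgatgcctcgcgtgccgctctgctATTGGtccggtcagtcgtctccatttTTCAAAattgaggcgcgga
Cenpf: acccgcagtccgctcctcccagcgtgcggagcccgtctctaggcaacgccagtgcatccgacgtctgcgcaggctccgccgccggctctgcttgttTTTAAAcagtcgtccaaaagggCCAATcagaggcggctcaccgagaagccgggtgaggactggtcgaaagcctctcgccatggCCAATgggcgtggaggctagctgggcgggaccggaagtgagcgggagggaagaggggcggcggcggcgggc
Dtl: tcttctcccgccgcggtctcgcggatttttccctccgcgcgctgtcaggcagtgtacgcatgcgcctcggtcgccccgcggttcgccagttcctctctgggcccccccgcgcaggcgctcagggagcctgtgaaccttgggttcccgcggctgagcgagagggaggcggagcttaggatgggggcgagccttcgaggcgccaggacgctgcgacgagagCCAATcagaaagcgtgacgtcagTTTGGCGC
The Kif11 window is chr19:37376132-37376381 (plus strand), that of Cenpf chr1:189688087-189688336 (minus) and that of Dtl chr1:191575545-191575794 (minus). Kif11, a motor of the mitotic spindle, has TTTGAA 13 bases and CCAAT 40 bases before its start, both on the other strand, where they read TTCAAA and ATTGG in the printed line. Cenpf, a kinetochore protein, has TTTAAA 148 bases and CCAAT 127 and 66 bases before its start. Dtl, which directs destruction of licensing factors in S phase, has CCAAT 26 bases before its start and the E2F-type letters directly at it. Per 10000 UMIs in the libraries of days 0 to 9, Kif11 was at 0.790, 0.841, 0.817 and 0.928 in members and at 0, 0, 0 and 0.134 in non-cycling cells. Cenpf was at 1.81, 2.12, 2.02 and 1.55 against 0.0830, 0.111, 0.106 and 0.0669 (log2 difference 4.44 ± 0.365, adjusted p = 7.43e-14). Dtl was at 0.734, 0.439, 0.808 and 0.734 against 0, 0, 0.106 and 0. For all 3 genes the members lay above the non-cycling cells in each library.

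Over both lists, TTTGAA or TTTAAA was in 56% of the 50 windows of G2 and M genes, 21.2% of the 33 windows of S phase genes and 25.2% of all 32851 promoter windows of this length. CCAAT was in 74%, 66.7% and 33.9%. An E2F-type site, searched as TTTCCCGC, TTTCGCGC, TTTGCCGC or TTTGGCGC, was in 6%, 27.3% and 1.86%. Both a CCAAT and a TTTGAA or TTTAAA were in 46% of G2 and M windows, 15.2% of S phase windows and 8.78% of all. All searches covered both strands, and 45 G2 and M genes and 30 S phase genes had a window. A match describes the letters and says nothing of binding.

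Outside the cycle lists the members were higher in single large increases. Spc24, Fbxo5 and Ccna2 are cell cycle genes as well, so their differences also follow from the rule's use of Mki67 and Top2a. The increase of Tuba1b cannot be separated from that choice of dividing cells either. Tuba1b, an alpha tubulin, was at 11.7, 15.2, 15.2 and 13.2 UMIs per 10000 in members and at 0.830, 0.332, 0.740 and 0.669 in non-cycling cells (4.49 ± 0.191, adjusted p = 1.4e-23). Spc24, an outer kinetochore subunit, was at 2.79, 1.94, 2.40 and 1.61 against 0, 0, 0.106 and 0.0669, its non-cycling values resting on 3 UMIs in all. Fbxo5, an inhibitor of the anaphase-promoting complex, was at 1.27, 1.52, 1.46 and 1.05 in members and at 0 in all 4 non-cycling libraries, at least 24.1-fold higher taking 3 UMIs over the non-cycling group. Cyclin A2, Ccna2, had 1.95 to 2.41 in members and was at 0 in 3 of the 4 non-cycling libraries and 0.111 in the other. A pair of CDK inhibitors rose while the list as a whole was lower. Cdkn2c was at 1.16, 1.23, 1.53 and 0.853 in members and 0.249, 0.111, 0.159 and 0.0669 in non-cycling cells (log2 difference 3.17 ± 0.370, adjusted p = 1.54e-09; 3.02 without cells rich in other types), and Cdkn2d differed by 0.91 (adjusted p = 6.89e-05). Btg1 fell by 2.04 and Btg2 by 1.95, and 6 of 9 genes of the list were lower. Members were therefore between the other classes in Btg1 and Btg2, above early and below non-cycling cells.

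B cell genes were lower in members than in non-cycling cells. Il2ra, the CD25 chain that marks resting pre-B cells, was at 0.0847, 0.0549, 0.138 and 0.0756 UMIs per 10000 in members and 1.08, 1.22, 1.16 and 1.0 in non-cycling cells (-3.39 ± 0.325, adjusted p = 7.97e-12; -2.92 without cells rich in other types). Atp1b1, a subunit of the sodium pump, was at 2.06, 1.54, 1.23 and 1.26 against 13, 10.5, 9.09 and 8.96 (-2.66 ± 0.141, adjusted p = 4.5e-20; -2.18 without those cells). The ranges of both genes lay apart. Of 18 B cell transcription factors 13 were lower and 1, Id2, was higher (median -1.05), and 11 of 16 were lower and 0 higher without those cells. Foxo1, which drives Rag expression, differed by -2.06 (-1.57 without those cells), Sox4 by -1.77 (-1.14) and Pax5 by -1.34 (-0.76). Of 13 pre-BCR signalling genes 9 were lower and 1, the phosphatase Ptpn6, was higher, and of 11 B lineage identity genes 10 were lower (median -1.34; 9 lower and 1, Cd24a, higher without those cells, -0.76). Il7r differed by -1.19 (-0.63) and S1pr1, the receptor that guides lymphocytes out of tissues, by -2.28 (-2.16). Of 11 light chain recombination genes 10 were lower (median -1.40; 8 of 10 and -0.80 without those cells). Rag1 and Rag2 are not among the 11, but the non-cycling cells were chosen by their UMIs, so genes that go with Rag expression are not separate from that choice. Iglc1 differed by -2.07 and Igkc by -0.56 (adjusted p = 0.599). These values are shares of a cell's transcripts, and a member held a median of 6642 UMIs against 1759.

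Growth genes were higher in members here. Of 12 MYC growth genes 6 were higher in members than in non-cycling cells and 0 lower (median 0.65), led by Ran, a GTPase of nuclear transport (2.19 ± 0.161, adjusted p = 2.15e-15), and Pa2g4 (1.65). Without cells rich in other types 7 of 11 were higher. Heat shock genes were higher in 4 of 7 in both settings. All 8 glycolysis genes were higher (median 0.95), but 2 of 8 (0.26) without those cells, Gapdh being higher in both (1.35 and 1.20). AP-1 genes were lower in 4 of 10 and higher in 0. Ccnd3, the cyclin of pre-B cell division, differed by 0.37 (adjusted p = 0.0722) and 0.59, and Myl4 by 0.10 (adjusted p = 0.671) and 0.62.

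Within the members, cells were ordered by the natural log of the ratio of their S phase to their G2 and M phase UMIs. A UMI was added to each sum, and the cells were split at the median of -1.22. S-leaning means above that median, so such a cell can hold more G2 and M than S phase UMIs. A day 9 cell with 0 UMIs of both lists counted as S-leaning. The split is a range and not a pair of types, and 51 of 339 cells were within 0.25 of it. S-leaning cells made up 31.8% of members at day 0 (exact binomial 95% interval 18.6% to 47.6%), 41.7% at day 3 (29.1% to 55.1%), 48.6% at day 6 (39.0% to 58.3%), 63.1% at day 9 (53.4% to 72.0%) and 46.2% at day 12 (19.2% to 74.9%). Day 9 was the highest, and its interval lay apart from that of day 0, but the intervals cover counting error only and not differences between mice. In B-lineage members the shares were 35.5%, 37.0%, 50.7%, 67.1% and 55.6%, with the interval of day 0 up to 54.6% and that of day 9 from 55.4%.

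Over 4 libraries, 175 of 3664 genes (4.78%) were higher in S-leaning and 145 (3.96%) higher in G2 and M-leaning members. Without the genes of the lists that made the split it was 142 and 114 of 3583, and those genes are not named here. Higher in S-leaning cells were Rpa1, a single-strand DNA binding subunit (1.91 ± 0.285, adjusted p = 2.56e-05), the DNA ligase Lig1 (1.77), Dut, which removes dUTP (1.51 ± 0.128, adjusted p = 1.91e-09), and the helicase subunit Mcm3 (1.50). Higher in the others were Ccnb1, cyclin B1 (-2.53 ± 0.255, adjusted p = 4.62e-08), Cdkn3 (-2.34 ± 0.207, adjusted p = 3.85e-09), the importin gene Kpna2 (-2.01) and the mitotic kinase gene Plk1 (-1.76). These genes are of the phases the split used. Without cells rich in other types Rpa1 differed by 2.11, Dut by 1.37, Ccnb1 by -2.90 and Cdkn3 by -2.50. Monocyte gene F13a1 (-1.50) and metallothionein gene Mt1 (1.59, adjusted p = 0.0133) were also called, and both were too low to test without cells rich in other types.

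Few B cell genes passed the test between the phases. Of 11 tested B lineage identity genes the lowest adjusted p was 0.238, for Spib. Without cells rich in other types 2 of 11, Spib (-0.59) and Cd24a (-0.32), were lower in S-leaning cells. Syk and Bach2 were higher in G2 and M-leaning cells, each by 0.70 (log2 differences -0.70 and -0.70, adjusted p = 0.0138 and 0.00582; -0.94 and -0.89 without those cells), and they were the 2 of 13 pre-BCR signalling genes that passed. Ccr7, a chemokine receptor of B and T cells, was higher in S-leaning cells (1.67 ± 0.393, adjusted p = 0.00635) and Id3, an inhibitor of E proteins, by 0.76. Of 12 MYC growth genes 3 were higher in S-leaning cells and 0 lower, with Pa2g4 at 0.93. The histone list had 3 of 11 higher, with Hist1h1a, a linker histone, at 1.32. The library protocol primes on poly(A) tails, which replication-dependent histone transcripts mostly lack.

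Levels within members were last set side by side by day, as ratios to day 0 with no test. Among genes with at least 50 UMIs over the pair of libraries, 48 of 2130 (2.25%) differed by more than 2-fold at day 3, 16 (0.751%) higher and 32 (1.50%) lower. At day 6 it was 119 of 3187 (3.73%), 70 (2.20%) higher and 49 (1.54%) lower, and at day 9 113 of 2796 (4.04%), 55 (1.97%) higher and 58 (2.07%) lower. Day 12, with 13 members, was left out of this count.

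Immediate early genes were the clearest group. Fos, a subunit of the AP-1 transcription factor, was at 12.8, 2.83, 3.32, 3.02 and 7.88 UMIs per 10000 in members at day 0, 3, 6, 9 and 12. In B-lineage members Fos was at 7.66, 1.39, 2.01, 2.04 and 6.69, with days 0 and 12 again the highest, although 64 of its 126 UMIs at day 0 came from 1 cell. In B-lineage members Fosb was at 4.56, 0.646, 1.08, 1.32 and 6.69 and Jun at 6.20, 1.53, 1.40, 2.27 and 5.76. Cd69, an early activation gene whose product holds lymphocytes in tissue, was at 3.16, 0.850, 0.611, 0.431 and 2.42. Days 0 and 12 were the high days in each of these genes, but for Cd69 all 13 UMIs at day 12 came from 1 of the 9 cells. Of the other day 12 UMIs, 18 of 36 of Fos, 16 of 31 of Jun and 12 of 36 of Fosb came from 1 cell each. The day 12 cells also include those low in the B lineage list given above, and their part in these levels was not tested. All 10 tested genes of the AP-1 list were below day 0 at days 3, 6 and 9 in all members (median log2 ratio -1.15, -1.18 and -1.13), as were 9 of 9 in B-lineage members (-1.41, -1.55 and -1.07). Of all genes, 1105 of 2130, 1500 of 3187 and 1562 of 2796 were below day 0 on those days in all members. In B-lineage members it was 740 of 1323, 1053 of 1837 and 975 of 1634. All non-cycling cells, of which day 12 had 7, held Fos at 8.88, 4.09, 3.38, 2.27 and 9.01, again highest at days 0 and 12, and all early cells, at 2.93, 1.17, 1.75, 1.07 and 1.60, had day 0 highest as well. The day's difference was thus not seen in members alone. 

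**Figure D5:**
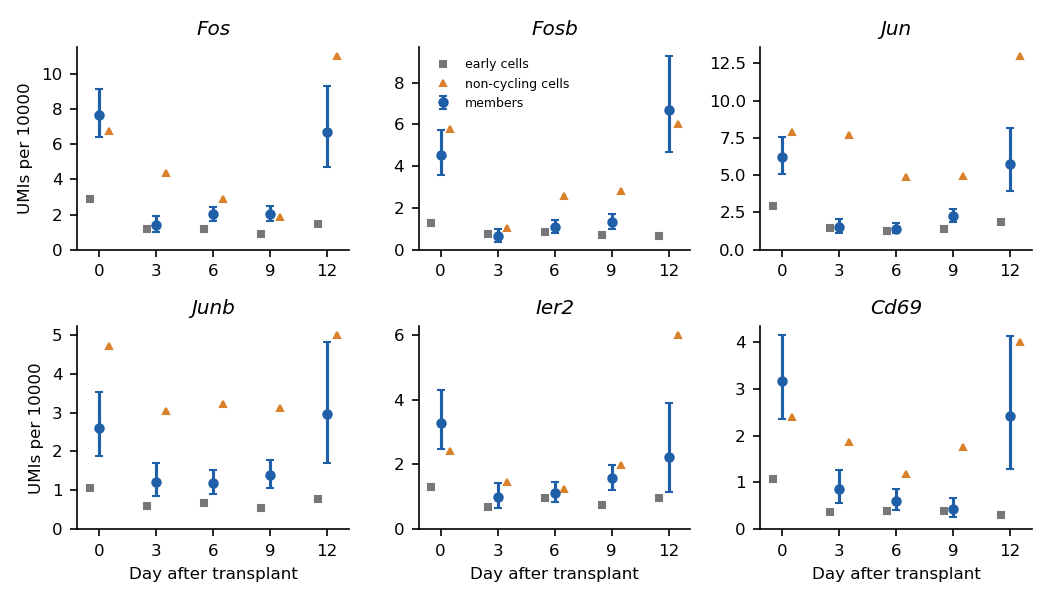
UMIs per 10000 of Fos, Fosb, Jun, Junb, Ier2 and Cd69 at day 0, 3, 6, 9 and 12 (1 mouse each) in the 237 B-lineage members (blue, with exact Poisson 95% intervals), early cells (grey) and non-cycling cells (orange), all below the limits on other cell types. In members each gene is higher at days 0 and 12 than at days 3, 6 and 9, with Fos at 7.66 and 6.69 against 1.39 to 2.04. The day 12 value of Cd69 comes from 1 cell, and 18 of 36 Fos and 16 of 31 Jun UMIs there come from 1 cell each. Some of the day 12 members are low in the B lineage list.

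Some other members' genes moved by day. The linker histone gene Hist1h1a was at 2.13, 0.578, 0.611, 1.09 and 3.16 in B-lineage members, again with day 0 and day 12 high. In all members 8 of 9, 11 of 12 and 10 of 11 histone genes were below day 0 at days 3, 6 and 9. All genes gave 1105 of 2130, 1500 of 3187 and 1562 of 2796. Among histone genes Hist1h2ap differed, at 11.3, 12.0, 21.9, 19.3 and 12.7 in all members. Sox4 was at 4.80, 3.30, 2.34, 2.16 and 1.12 and Hes1, a Notch target, at 1.82, 0.884, 0.808, 0.477 and 0.372 in B-lineage members, both lower at each later day than at day 0. Ifitm3, an interferon-induced membrane protein, was at 0.730, 1.77, 2.32, 2.36 and 1.49 and Ifi27l2a, also interferon-induced, at 4.26, 11.6, 6.68, 9.31 and 16.9, with day 0 the lowest in both. At day 12, 41 of 91 Ifi27l2a UMIs came from 1 cell. In the same cells neutrophil list genes were also above day 0, in 6 of 7 at day 3 and 7 of 7 at days 6 and 9. A link between these differences was not tested. Iglc1 was at 0.851, 5.13, 2.58, 5.79 and 6.32, a gene at 18.2 in the 38 cells above and 0.268 in the other 199. Of its UMIs, 26 of 34 at day 12 and 88 of 255 at day 9 came from 1 cell each. Cd74 was highest at day 3, at 28.6 against 10.3 to 18.6, with 274 of 842 UMIs there from 1 cell.

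A pair of plasma cell genes had UMIs in members at day 9 and none at day 0, although the plasma cell list as a whole took a median of 0.0449% of a member's UMIs at day 0 and 0.0469% at day 9. Jchain, the joining chain of secreted IgA and IgM, had 300 UMIs at day 9, of which 142 came from 1 cell. In B-lineage members it had 13 UMIs at day 9, in 11 of 76 cells (0.295 per 10000), beside 0.257 in early cells and 0.401 in non-cycling cells, so its level in all members rests on cells rich in other types. Igha, the IgA heavy chain, was spread over 47 of the 111 day 9 members with at most 5 UMIs a cell, and it was at least 9.18-fold higher, or at least 4.98-fold in B-lineage members. Of the 55 UMIs of the chemokine gene Xcl1, 52 were from 1 cell. Igha was also higher at day 9 in non-cycling cells, at 1.47 UMIs per 10000 against 0 to 0.111 on the other days. Neutrophil-rich barcodes held Jchain in 0% to 13.4% and Igkc in 11.9% to 75.7% of cells by library, and Igha was not counted in them. The part of free RNA in the Igha difference was not tested.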

How the data were processed

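Bone marrow cells of 5 mice were profiled with 10x 3′ v2 chemistry, 1 library per mouse. The authors aligned reads to mm10 and counted UMIs with Cell Ranger, which the submitters' notes name, and deposited raw UMI counts for all 737280 barcodes of each library. The libraries held 33425695 to 43554233 UMIs, and 4870 to 6944 barcodes each passed the minimum of 500 UMIs and the 10% mitochondrial limit (median 3143 to 4397 UMIs). The members, gene lists and tests were chosen with earlier results of these data known.

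From the counts, UMIs were summed per library and cell class, filtered with filterByExpr and tested with edgeR 4.0.16 (R 4.3.3; TMM, quasi-likelihood, the library as a block), with adjusted p below 0.05 as the threshold. A class needed at least 10 cells in a library. The library is the replicate, since both classes of a comparison come from the same mouse. Levels are UMIs per 10000 of a class's summed UMIs, and exact Poisson and binomial 95% intervals cover counting error only. Ratios between days needed 20 members a library and 50 summed UMIs a gene. Genes named outside the lists were the 8 largest differences each way (6 for days) at a mean of at least 50 CPM with 1 direction in all libraries. Others that are named were singled out after their values were seen. Limits marking a cell as rich in another type were 5% of UMIs for neutrophil, 1% for monocyte and 0.3% for other lists. Cells without them were a further setting, chosen after seeing the data. DESeq2 1.42.0, other filters, scalings and thinning were alternatives. Scrublet was run in scanpy 1.11.5 (Python 3.11.15). The fits were tested on simulated data. Promoter windows are from RefSeq on GRCm38.p6, and gene positions from GENCODE on the same assembly.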

Additional observations from a re-analysis of the deposited data

How the results depend on the processing

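Of the gene results under the alternatives, 646 kept direction and side of the threshold, 6 kept direction only and 0 reversed, counting genes named for the size of a called difference. All of these genes were picked for passing in the main fit with 1 direction in every library. Reversals were thus unlikely by the choice of genes, and these counts are no separate check. Some of the genes were picked because they also passed with the same sign without cells rich in other types, so their result there was fixed beforehand. A gene too low to test in a setting, such as Ctsg without those cells, was not counted there. Il7r and Myl4, which did not pass the test against early cells, changed sign without the cells rich in other types. Leaving out the cells rich in other types took Elane to 0.14 and Prtn3 to 0.41, and it left 841 of 1319 calls (63.8%) against non-cycling cells, 1276 of 2084 (61.2%) against early cells and 192 of 320 (60%) between phases with the same sign (and 11, 9 and 0 called with the opposite sign), in fits of fewer cells and, against early cells, 4 libraries. Shares of members moved to 0.495% (day 0), 1.24% (day 6) and 1.09% (day 9) without those cells, to 1.24% at day 9 with at most 5% mitochondrial UMIs, and to 1.29% (day 6), 1.03% (day 9) and 0.115% (day 12) with every barcode thinned to 2000 UMIs. Genes higher than in non-cycling cells numbered 1274 without a filter, which also tests more genes. DESeq2 called 386 lower than in non-cycling cells, 722 lower than in early cells, and 65 and 43 between phases, and the cause was not tested. Leaving out 1 library gave 92 (without day 6) to 272 (without day 3) higher and 81 (without day 6) to 243 (without day 3) lower calls between phases, and 82 lower without day 9. Day counts past 2-fold moved with the UMI minimum, from 313 (20 UMIs) to 20 (100 UMIs) at day 3, 491 to 33 at day 6 and 515 to 45 at day 9. Thinned cells gave 19, 26 and 40, the mean over cells 82 at day 3 and 178 at day 9, and cells without other types 60 at day 6. F13a1 (-1.43 with no Cdkn2a or Tmem119 UMI) and Mt1 (1.62 without day 0, 1.0 without day 9, 1.53 with that exclusion) no longer passed. No paired analysis was possible because each day has a single library, beyond the library block of the fits, without which the calls numbered 1258, 2046 and 242 against 1319, 2084 and 320. Day 12 rests on 13 members.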
